A study of Mus musculus with 6 samples.

Results

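The genes described here encode the machinery that sits between receptors on the cell surface and the messengers they set off inside the cell: the alpha, beta and gamma subunits of heterotrimeric G proteins, the RGS proteins that end their signal, the kinases and beta-arrestins that switch receptors off, and the adenylyl cyclases that make cyclic AMP. They were chosen by symbol (Rgs, Gna, Gnb, Gng, Grk, Arrb and Adcy names with a number or class letter), which took 57 of the 25628 symbols in the deposited count table, 12 for alpha, 5 for beta and 9 for gamma subunits, 15 for RGS proteins, 6 for receptor kinases, 2 for arrestins and 8 for cyclases. The cells were mouse TgSpi1 erythroleukaemic cells, numbered 722 in the design text, leukaemic erythroid blasts of bone marrow origin in which the transcription factor PU.1, the product of Spi1, is overexpressed. One group was given doxycycline for 48 h to switch on an shRNA against Spi1, and the other was left without doxycycline. Both groups carried the inducible shRNA and were kept with erythropoietin, and each had 3 libraries of polyA RNA, numbered 1 to 3, which the labels call biological replicates. No doxycycline-treated cells without the shRNA were analysed here, so an effect of the drug itself and that of the shRNA cannot be told apart.

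A receptor that binds its ligand makes the alpha subunit exchange GDP for GTP, and alpha and the beta-gamma pair then act on separate effectors. Alpha subunits of the Gs class stimulate adenylyl cyclase, those of the Gi class inhibit it, and those of the Gq class activate phospholipase C beta. RGS proteins speed up GTP hydrolysis by alpha subunits, and in blood cells they are best known for damping the response to chemokines.

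The knockdown held in every library. Spi1 stood at 84.8, 80.4 and 62.1 CPM (counts scaled to the size of each library after TMM normalization) in doxycycline replicates 1, 2 and 3, against 415, 353 and 329.6 CPM in untreated replicates 1, 2 and 3. The log2 fold change of doxycycline over untreated was -2.27 (edgeR adjusted p = 0.0030). Total counts per library lay between 78926663 and 101276319. The erythroid markers were high, with a summed level of 4060 to 6010 CPM in the doxycycline libraries and 3450 to 4490 CPM in the untreated libraries. Across genes, libraries that share a replicate number strayed from their groups in the same direction (correlations of 0.83, 0.83 and 0.75). A fit that holds the replicate number constant, called the block here, is therefore given beside each result whose call it changes. What a number means, and whether the cultures were separate, is not stated in the labels, so p-values measure the spread between these libraries.

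The members that fell with doxycycline were the regulators Rgs19 and Rgs1, the beta subunit Gnb4, the gamma subunit Gng2 and the arrestin Arrb2. These were 5 of the 38 members tested with edgeR's quasi-likelihood test at an adjusted p under 0.05 over all genes, or 13.2%, beside 2.59% of the 14158 genes tested. All 5 fell, beside 2.18% of all genes called lower, and none rose, beside 0.417% called higher. At an unadjusted p under 0.05, 14 members were lower and 3 higher, beside 9.56% and 5.86% of all genes. DESeq2 without the block called 9 of 39 members lower and 1 higher, beside 4.01% and 1.84% of the 15678 genes it tested. These were the 5 above, Rgs18, Rgs2, Rgs14 and Gna15, which were lower, and Rgs12, which was higher. Wherever a member is said to have passed with the block alone, the fits meant are those of edgeR.

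When the block was used, 17 of the 38 members were lower and 5 higher. That is 57.9% of the tested members, beside 25.8% of all genes (15.6% lower and 10.3% higher). The 5 that rose with the block were Rgs12, Gng5, Gng13, Gnas and Adcy9. DESeq2 with the same block called 16 lower and 4 higher, beside 11.3% and 11.8% of all genes, and left out Gng12 and Gng13. The median log2 fold change of the tested members was -0.06, close to the 0.01 of all genes tested. Levels of the groups did not overlap for 14 members, 12 lower and 2 higher, beside 20.6% of all genes (11.7% lower and 8.88% higher). The log2 ratio within the pairs of equal number was below 0 in all pairs for 17 members (44.7%, against 29.4% of all genes) and above 0 in all pairs for 8 (21.1%, against 28.0%).

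The 5 calls depended on single libraries. All 5 remained without doxycycline replicate 3 and without untreated replicate 3, where Gna14 also fell in the fit without doxycycline replicate 3. Without doxycycline replicate 2 the calls of Rgs19, Rgs1 and Arrb2 remained, without untreated replicate 1 those of Rgs19 and Gng2, and without untreated replicate 2 that of Rgs19. None of the 5 passed without doxycycline replicate 1, where their adjusted p lay between 0.0554 for Rgs19 and 0.0893 for Arrb2. Every one kept a negative fold change in all of these fits.

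Not all members could be tested. The other 19 did not pass the filter on low counts, and 14 of them had at most 3 reads in any library. Among these were Gnai1 and Adcy5, at 0 reads in all 6 libraries if 1 is taken off each deposited value. Gng2 passed the filter only through the untreated libraries and Gng13 only through the doxycycline libraries, so both had to differ. Of the 36 members left without them, 4 fell, beside 2.18% of all genes tested. With the block 16 of the 36 fell and 4 rose, beside 15.6% and 10.3% of all genes. Genes that passed the filter through a single group were not taken out of these shares of all genes.

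**Figure D1:**
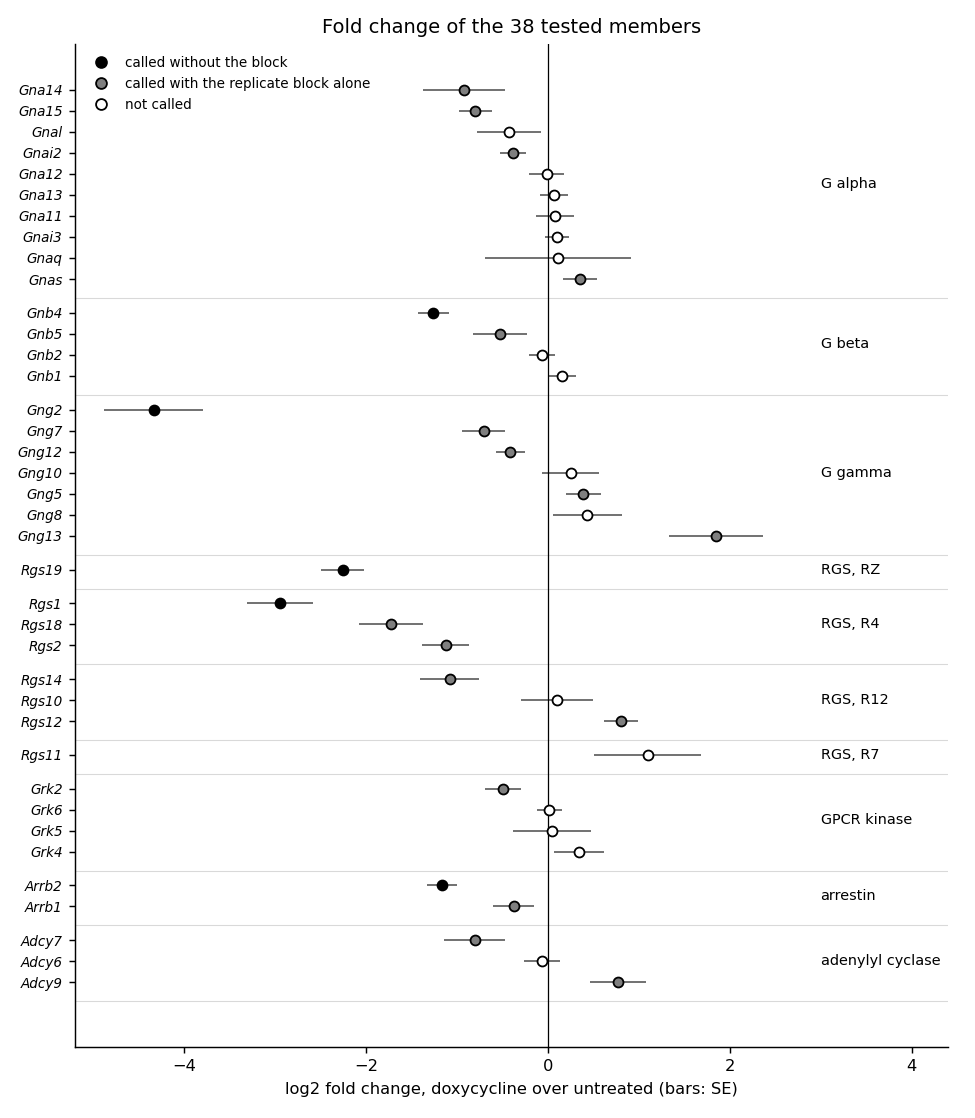
Fold change of the 38 tested members by role, as log2 of doxycycline over untreated from the fit without the block, with bars for the SE. Black points passed without the block (Rgs19, Rgs1, Gnb4, Gng2 and Arrb2, all below 0), grey points passed with the replicate block alone, and white points passed in neither fit.

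The RGS family held the largest falls after that of Gng2. Of its 15 members, 8 were tested and 2 fell, or 25%, beside 2.59% of all genes. Under the block there were 5 lower and 1 higher, or 75%, beside 25.8% of all genes. DESeq2 without the block called the same 5 lower and the same 1 higher. The median log2 fold change of the 8 was -1.10. Summed over the 15 members, RGS mRNA stood at 100.5, 112 and 109 CPM in doxycycline replicates 1, 2 and 3, against 176, 151 and 153 CPM in untreated replicates 1, 2 and 3. The summed levels did not overlap between the groups.

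Rgs19, also known as GAIP, which acts on alpha subunits of the Gi class, had the smallest adjusted p of the family. The gene (ENSMUSG00000002458.13, chromosome 2 from 181688419 to 181693977 on the minus strand, GRCm38) stood at 6.84, 6.99 and 5.43 CPM in doxycycline replicates 1, 2 and 3, against 38.6, 30.3 and 23.0 CPM in untreated replicates 1, 2 and 3. Every doxycycline library was far below every untreated one. The log2 fold change was -2.26 (SE 0.24, adjusted p = 0.00978), and within the pairs it was -2.50, -2.12 and -2.08.

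The R4 class, the small RGS proteins that are little more than an RGS domain, moved in one direction. Rgs1, a regulator of chemokine responses in lymphocytes, stood at 0.625, 0.863 and 0.432 CPM in doxycycline replicates 1, 2 and 3, against 5.75, 5.6 and 3.48 CPM in untreated replicates 1, 2 and 3. It had the largest fall of the family, with a log2 fold change of -2.95 (SE 0.36, adjusted p = 0.0136). Rgs18, a regulator found in megakaryocytes, platelets and other marrow cells, stood at 24.9, 17.1 and 9.77 CPM in doxycycline replicates 1, 2 and 3, against 71.9, 55.3 and 44.3 CPM in untreated replicates 1, 2 and 3. The groups did not overlap. In edgeR the log2 fold change was -1.73 (SE 0.35, adjusted p = 0.0543) without the block and -1.80 (SE 0.13, adjusted p = 9.97e-06) with it, and DESeq2 without the block called it (adjusted p = 1.02e-04). Rgs2, which prefers alpha subunits of the Gq class, was low and stood at 0.593, 0.801 and 0.642 CPM in doxycycline replicates 1, 2 and 3, against 1.30, 1.63 and 1.51 CPM in untreated replicates 1, 2 and 3. It too was lower in every pair and fell in edgeR with the block (log2 fold change -1.13, adjusted p = 0.0019; adjusted p = 0.078 without it) and in DESeq2 without it (adjusted p = 0.00623).

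The R4 genes that fell, with or without the block, lie in one stretch of the genome. Rgs2, Rgs13, Rgs1 and Rgs18 lie in this order on chromosome 1 between 143999338 and 144775435, all on the minus strand, and no other pair of tested RGS members lies within 1000 kb of each other. Rgs13, the remaining member there, had at most 5 reads in any library and was not tested. Rgs16, another R4 gene of chromosome 1 but outside this stretch, had no more than 1 read in any library. Of the other members that lie close together, some neighbours had unlike values. Gna15 and Gna11 are 4.5 kb apart with log2 fold changes of -0.80 and 0.08, and Gna14 and Gnaq are 48.3 kb apart with -0.92 and 0.11. Gna11 and Gng7, and Grk6 and Rgs14, also differed. Others had values of like sign. These were Gna15 and Gng7 (487.4 kb apart, -0.80 and -0.71), Gng13 and Rgs11 (483.5 kb, 1.85 and 1.10) and Grk4 and Rgs12 (194.1 kb, 0.34 and 0.81). The difference between neighbours was not tested.

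The larger, many-domain RGS proteins of the R12 class had values on both sides of 0. Rgs12, which carries PDZ and Ras-binding domains, stood at 41.8, 60.6 and 57.1 CPM in doxycycline replicates 1, 2 and 3, against 26.8, 30.9 and 33.4 CPM in untreated replicates 1, 2 and 3. It was the RGS gene that rose with the block (log2 fold change 0.80, SE 0.10, adjusted p = 3.14e-04; adjusted p = 0.0795 without it, and 0.0106 by DESeq2 without it). Rgs14, a scaffold that binds Gi subunits and Ras proteins, stood at 8.19, 8.99 and 3.67 CPM in doxycycline replicates 1, 2 and 3, against 15.1, 14 and 15.1 CPM in untreated replicates 1, 2 and 3. It fell with the block (-1.17, SE 0.23, adjusted p = 0.00429; adjusted p = 0.164 without it, and 0.0431 by DESeq2 without it), and doxycycline replicate 3 was the lowest by a wide margin.

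Rgs10, a small member of the same class, followed the replicate number rather than the treatment. It stood at 17.2, 16.4 and 31.5 CPM in doxycycline replicates 1, 2 and 3, against 16.0, 13.2 and 31.7 CPM in untreated replicates 1, 2 and 3 (adjusted p = 0.949). Number 3 was the highest in both groups. Rgs11, of the R7 class that pairs with Gnb5, was at 0.208, 0.36 and 0.161 CPM in doxycycline replicates 1, 2 and 3, against 0.0679, 0.051 and 0.212 CPM in untreated replicates 1, 2 and 3. These levels overlapped, and it passed neither fit.

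The make-up of the RGS pool differed with them. On the scale of CPM per kb of exon, Rgs19 made up 9.41%, 10.1% and 7.25% of RGS mRNA in doxycycline replicates 1, 2 and 3, against 24.7%, 23.9% and 17.4% in untreated replicates 1, 2 and 3. Rgs18 made up 26.4% ± 11.7 with doxycycline and 45.1% ± 7.26 untreated (SD, n = 3 each), and its share in doxycycline replicate 1 (37.6%) was above that in untreated replicate 3 (36.9%). Rgs12 made up 19.4% ± 4.04 in the doxycycline libraries and 5.86% ± 1.17 in the untreated libraries. Rgs10 made up 38.9% ± 13.8 in the doxycycline libraries and 19.4% ± 10.3 in the untreated libraries, with overlap. Shares add up to a whole, so a share can be higher without a higher level, as that of Rgs10 was. Shares also depend on the length used, the union of all annotated exons (8.487 kb for Rgs12 and 1.711 kb for Rgs10). In CPM, Rgs12 was above Rgs10 in every library.

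**Figure D2:**
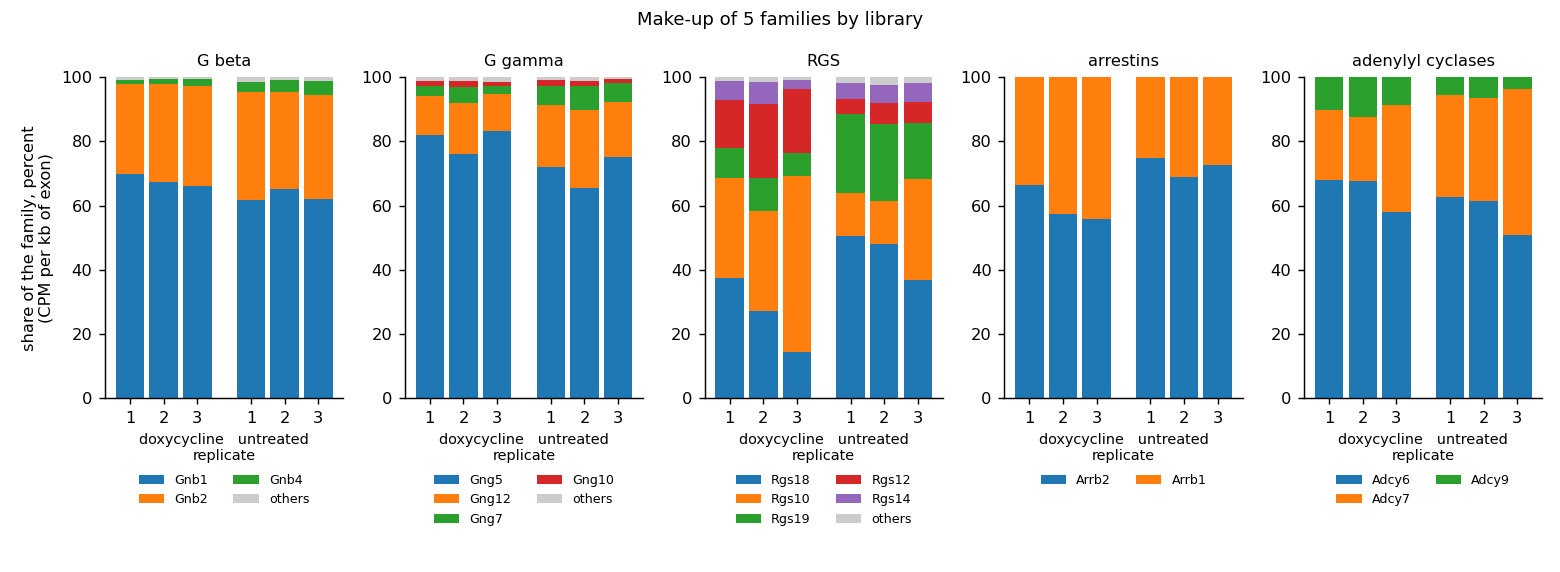
Share of each member in the mRNA of its family for 5 families, in percent on the CPM per kb of exon scale, for each of the 6 libraries (doxycycline replicates on the left, untreated on the right of each panel). In the RGS panel the share of Rgs19 is between 7.25% and 10.1% in the doxycycline libraries and between 17.4% and 24.7% in the untreated libraries.

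Promoter sequence was looked at for the members that moved, because PU.1 binds DNA at purine-rich sites around a GGAA core. Windows from 250 bases before to 50 after each start in RefSeq (GRCm38.p6) were searched on both strands for GAGGAA, a core that PU.1 favours, for GGAAGT, which can overlap it, and for GATAA, a core bound by GATA factors. Of the 57 members, 44 had a window in the table, and of the 5 that fell Rgs19 and Gng2 did. GAGGAA was in a window of 14 of the 44 members, or 31.8%, against 31.3% of all 27025 symbols. The members held these letters about as often as genes in general. With a window and a call under the block, 4 of 9 lower members (Gna15, Gng12, Gng2 and Rgs19) and 1 of 5 higher members (Rgs12) held them, against 2 of 13 tested members that were not called. GGAAGT was found for 22.7% of the members and 26.5% of all symbols, and GATAA for 15.9% and 28.4%. A match is a string of letters and not a binding site. The windows below are those of Rgs19 and Gng2, which fell without the block, and of Rgs12, which rose with it, that hold a match. Each is printed 5′ to 3′ on the strand of the gene, with GAGGAA or its reverse complement in capitals. The first Rgs19 window, at the 5′ end of the annotated gene, is chr2:181693928-181694227 and the second, at an inner start, is chr2:181691768-181692067. That of Gng2, also at an inner start, is chr14:19976644-19976943 and that of Rgs12, at an inner start on the plus strand, is chr5:34998828-34999127.
Rgs19, 5′ end: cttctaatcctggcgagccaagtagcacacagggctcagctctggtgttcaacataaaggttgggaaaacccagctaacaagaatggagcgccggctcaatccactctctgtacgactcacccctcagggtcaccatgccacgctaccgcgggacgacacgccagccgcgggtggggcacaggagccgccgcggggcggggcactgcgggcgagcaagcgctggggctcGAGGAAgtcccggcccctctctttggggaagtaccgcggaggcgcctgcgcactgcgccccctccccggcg
Rgs19, inner start: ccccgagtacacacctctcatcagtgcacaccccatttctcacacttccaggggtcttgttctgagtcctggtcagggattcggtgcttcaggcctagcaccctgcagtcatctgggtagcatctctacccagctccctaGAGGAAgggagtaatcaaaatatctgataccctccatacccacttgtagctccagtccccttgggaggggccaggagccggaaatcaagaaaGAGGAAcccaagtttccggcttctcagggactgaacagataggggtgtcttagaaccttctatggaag
Gng2: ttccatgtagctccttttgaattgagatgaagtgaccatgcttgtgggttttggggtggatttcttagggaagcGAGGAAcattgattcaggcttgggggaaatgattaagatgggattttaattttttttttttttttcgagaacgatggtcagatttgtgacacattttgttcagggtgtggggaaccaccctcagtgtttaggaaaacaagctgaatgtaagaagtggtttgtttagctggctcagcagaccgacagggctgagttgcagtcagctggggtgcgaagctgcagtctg
Rgs12, inner start: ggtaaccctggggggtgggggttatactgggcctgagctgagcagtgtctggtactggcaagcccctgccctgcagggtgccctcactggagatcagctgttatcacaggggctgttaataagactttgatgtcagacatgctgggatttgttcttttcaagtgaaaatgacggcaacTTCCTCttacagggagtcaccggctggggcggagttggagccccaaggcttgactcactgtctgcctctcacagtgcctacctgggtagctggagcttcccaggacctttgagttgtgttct
In Rgs19 the letters stood 21 bases before the first start, and 110 and 18 bases before the inner one. A further window of Rgs19 overlaps the first and holds the same match. In Gng2 they stood 176 bases before the start, which lies 934 bases inside the annotated 5′ end of the gene. In Rgs12 the reverse complement began 72 bases before the inner start, while the window at its outer start held none. The 3 windows of Adcy7, which fell with the block, held no GAGGAA.

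**Figure D3:**
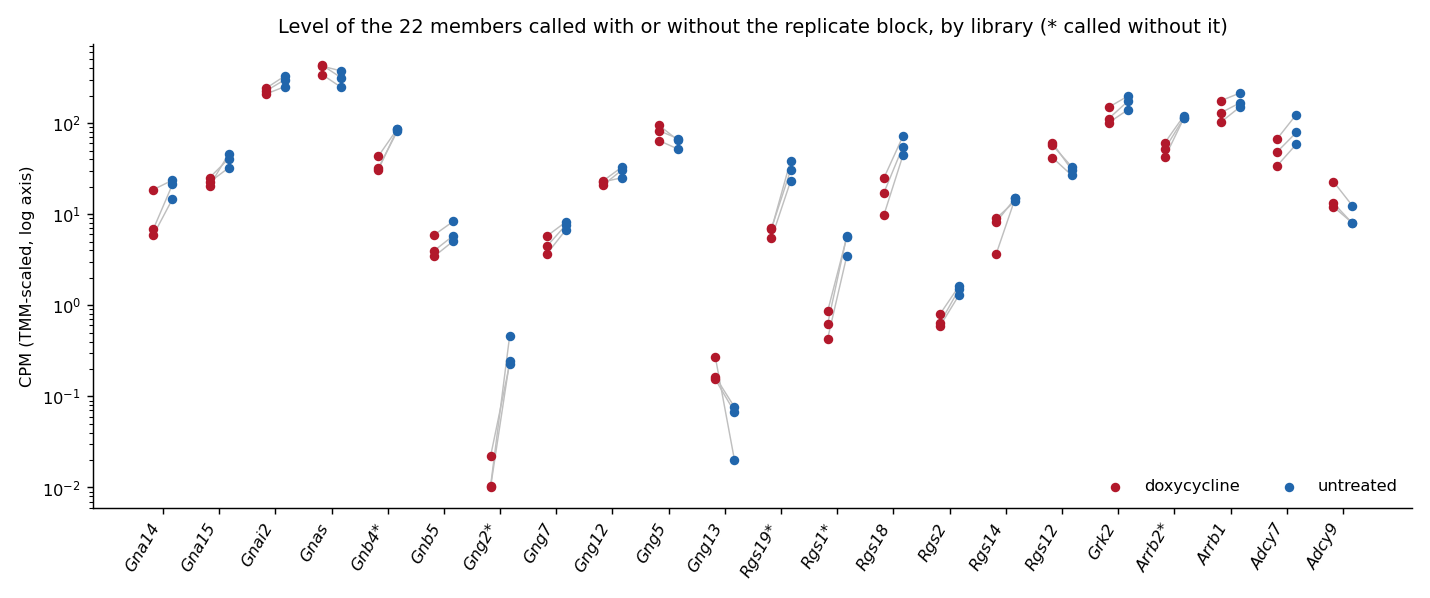
Level in each library of the 22 members that passed with or without the replicate block, in TMM-scaled CPM on a log axis, with doxycycline on the left and untreated on the right of each gene and grey lines between libraries of equal number. Asterisks mark the 5 that passed without the block, among them Rgs1 at 0.432 to 0.863 CPM in the doxycycline libraries and 3.48 to 5.75 CPM in the untreated libraries.

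No alpha subunit passed without the block, and the most abundant one, Gnai3, passed in neither fit. Of the 12 members 10 were tested. At an unadjusted p under 0.05, 2 were lower and none higher, beside 9.56% and 5.86% of all genes. By DESeq2 without the block Gna15 was lower, beside 4.01% of all genes. With the block 3 fell and 1 rose (40%, beside 25.8% of all genes). Gnai3, a Gi subunit and the most abundant alpha subunit per kb of exon, stood at 486, 386 and 463 CPM in doxycycline replicates 1, 2 and 3, against 424, 417 and 406 CPM in untreated replicates 1, 2 and 3. Its groups overlapped (log2 fold change 0.10, SE 0.13, adjusted p = 0.81).

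Gnai2, the Gi subunit through which many leukocyte chemokine receptors act, stood at 240, 225 and 208 CPM in doxycycline replicates 1, 2 and 3, against 329.5, 299.5 and 251 CPM in untreated replicates 1, 2 and 3. It was lower in each doxycycline library and fell with the block, by a small amount (log2 fold change -0.38, SE 0.09, adjusted p = 0.00924; adjusted p = 0.248 without it). Gnas, which encodes the Gs subunit from an imprinted locus, stood at 422, 433 and 341 CPM in doxycycline replicates 1, 2 and 3, against 374, 316 and 248 CPM in untreated replicates 1, 2 and 3. The groups overlapped, each pair was higher with doxycycline, and it rose with the block (0.36, SE 0.09, adjusted p = 0.0179; adjusted p = 0.441 without it).

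Among the Gq class, Gna15 and Gna14 fell with the block and Gna11 and Gnaq did not pass. Gna15, a subunit of blood cells that couples to many kinds of receptor, stood at 20.5, 25.2 and 22.5 CPM in doxycycline replicates 1, 2 and 3, against 45.7, 40.6 and 32.3 CPM in untreated replicates 1, 2 and 3. Its groups did not overlap (block log2 fold change -0.79, SE 0.13, adjusted p = 0.0015; adjusted p = 0.0743 without the block, and 0.0206 by DESeq2 without it). Gna14 stood at 5.90, 6.87 and 18.6 CPM in doxycycline replicates 1, 2 and 3, against 14.7, 21.2 and 23.6 CPM in untreated replicates 1, 2 and 3. Its doxycycline replicate 3 lay within the untreated range, and it passed with the block (-1.09, SE 0.21, adjusted p = 0.00386; adjusted p = 0.4 without it). Gnaq ran with the replicate number, at 2.86, 5.07 and 11.5 CPM in doxycycline replicates 1, 2 and 3, against 1.67, 3.07 and 13.2 CPM in untreated replicates 1, 2 and 3. Gna11 averaged 14.9 ± 3.295 CPM in the doxycycline libraries and 14.1 ± 1.83 CPM in the untreated libraries (SD, n = 3 each).

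The subunits of the G12 and G13 class, Gna12 and Gna13, passed in neither fit. Gna13 averaged 142 ± 17.05 CPM with doxycycline and 136 ± 17.8 CPM untreated, and Gna12 averaged 82.15 ± 18.5 CPM with doxycycline and 82.85 ± 8.54 CPM untreated (SD, n = 3 each). Their log2 fold changes were 0.07 and -0.01, with adjusted p of 0.903 and 0.987. Gnal, the olfactory relative of Gnas, was below 0.5 CPM in every library.

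Of the 4 beta subunits tested, Gnb4 fell, Gnb5 fell with the block alone, and the abundant Gnb1 and Gnb2 passed in neither fit. That is 25% without the block, beside 2.59% of all genes, and 50% with it, beside 25.8%. Gnb4 stood at 31.8, 30.5 and 43.0 CPM in doxycycline replicates 1, 2 and 3, against 81.1, 85.2 and 86.2 CPM in untreated replicates 1, 2 and 3. The untreated libraries were close together and every doxycycline library was well below them (log2 fold change -1.26, SE 0.17, adjusted p = 0.0170). Gnb5, the divergent subunit that pairs with R7 RGS proteins, stood at 5.94, 3.99 and 3.45 CPM in doxycycline replicates 1, 2 and 3, against 8.36, 5.83 and 5.08 CPM in untreated replicates 1, 2 and 3. Its groups overlapped and its pairs were even, at -0.49, -0.55 and -0.56, so it fell with the block alone (adjusted p = 0.0146; adjusted p = 0.484 without it).

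Gnb1, which carries most of the beta mRNA, stood at 578, 523 and 474 CPM in doxycycline replicates 1, 2 and 3, against 509.8, 514 and 389.5 CPM in untreated replicates 1, 2 and 3. It did not pass (log2 fold change 0.16, SE 0.16, adjusted p = 0.736), nor did Gnb2 (-0.06, SE 0.15, adjusted p = 0.904). Per kb of exon, Gnb1 made up 67.8% ± 1.86 of beta mRNA in the doxycycline libraries and 62.9% ± 1.92 in the untreated libraries. Gnb4 made up 1.55% ± 0.413 with doxycycline and 3.84% ± 0.68 untreated (SD, n = 3 each). These shares depend on the exon lengths used, 12.69 kb for Gnb4 and 4.268 kb for Gnb1. Summed over the 5 genes, beta mRNA was 748 ± 50.5 CPM with doxycycline and 753 ± 96.1 CPM untreated, so the total was close while the minor part differed.

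The gamma subunits moved in both directions. Of 9 members 7 were tested and Gng2 fell (14.3%, beside 2.59% of all genes). With the block 3 fell and 2 rose (71.4%, beside 25.8% of all genes). Among these calls, Gng2 and Gng13 each passed the filter on low counts through a single group, so both had to differ. The other calls with the block were Gng12 and Gng7, which were lower, and Gng5, which was higher. Gng5, the most abundant, stood at 82.3, 64.2 and 94.3 CPM in doxycycline replicates 1, 2 and 3, against 67.5, 51.7 and 64.5 CPM in untreated replicates 1, 2 and 3. It was higher in each pair and rose with the block (log2 fold change 0.38, SE 0.09, adjusted p = 0.0137; adjusted p = 0.395 without it). Gng12 stood at 20.8, 23.1 and 22.6 CPM in doxycycline replicates 1, 2 and 3, against 30.6, 32.95 and 25.1 CPM in untreated replicates 1, 2 and 3. Gng7, known from brain, where it pairs with Gnal, stood at 4.42, 5.73 and 3.65 CPM in doxycycline replicates 1, 2 and 3, against 7.61, 8.22 and 6.71 CPM in untreated replicates 1, 2 and 3. Neither overlapped between the groups, and both fell with the block alone (Gng12 -0.41, adjusted p = 0.0257; Gng7 -0.73, adjusted p = 0.00361). In DESeq2 with the same block Gng12 did not pass (adjusted p = 0.053).

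Gng2 and Gng13 were changed in large proportion at very low levels. With 1 taken off each deposited value, Gng2 had 1, 0 and 0 reads in doxycycline replicates 1, 2 and 3, against 19, 35 and 23 reads in untreated replicates 1, 2 and 3. The ratio of the pooled reads, doxycycline over untreated and per library size, was 0.012, with an exact 95% interval of 2.99e-04 to 0.0687 that covers counting error only. The fitted log2 fold change of -4.34 (adjusted p = 0.0138) depends on the added count and is not a bound. Gng13, a subunit of taste cells, had 13, 15 and 26 reads in doxycycline replicates 1, 2 and 3, against 5, 5 and 1 reads in untreated replicates 1, 2 and 3. The pooled ratio was 4.53 (exact 95% interval 2.34 to 9.60), and it rose with the block alone (adjusted p = 0.0219; adjusted p = 0.134 without it). It did not pass in DESeq2 with the same block (adjusted p = 0.0666).

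**Figure D4:**
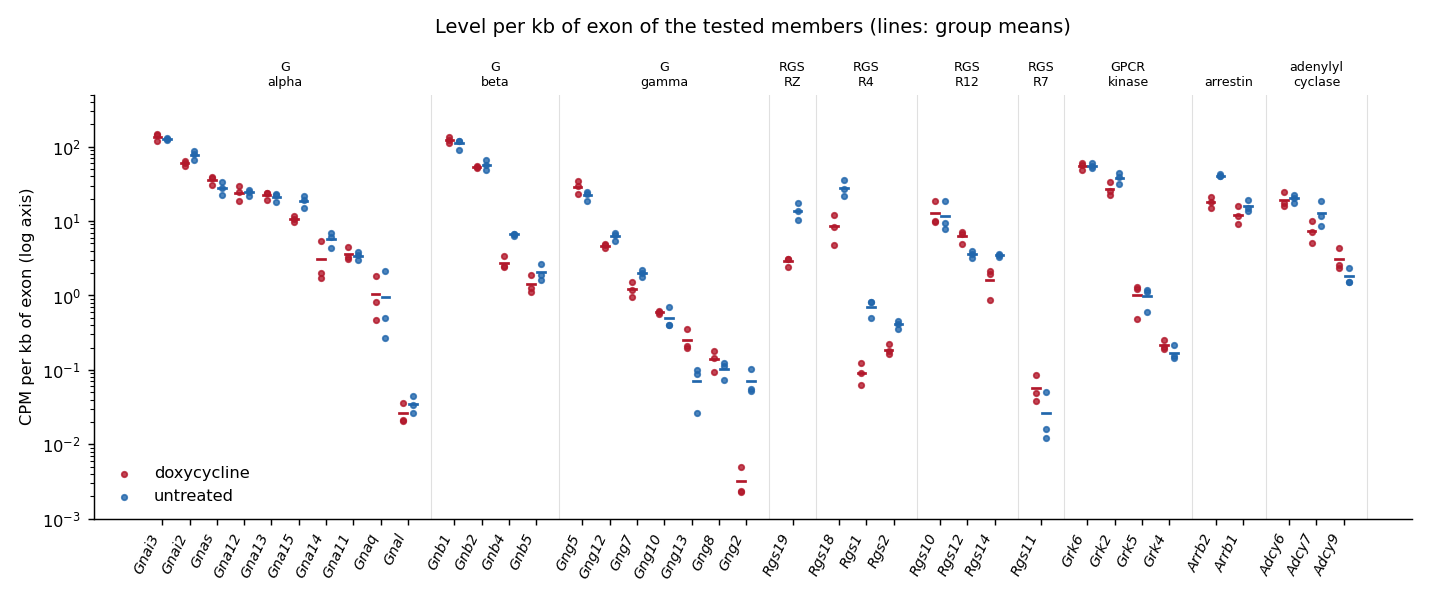
Level of the 38 tested members by role, in CPM per kb of exon on a log axis, with a point for each library and a line for the group mean, doxycycline left of untreated. Gnai3 and Gnb1 are at the top, and Gng2 is the lowest in the doxycycline libraries, at 0.00321 on average, against 0.0705 in the untreated libraries.

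Of the proteins that switch receptors off, the arrestin Arrb2 fell and its partner Arrb1 fell with the block. For these 2 genes that is 50% without the block, beside 2.59% of all genes, and 100% with it, beside 25.8%. Arrb2 stood at 52.0, 60.7 and 41.9 CPM in doxycycline replicates 1, 2 and 3, against 114, 120.5 and 113 CPM in untreated replicates 1, 2 and 3. The groups were well apart (log2 fold change -1.17, SE 0.17, adjusted p = 0.0185). Arrb1 stood at 103, 176 and 130.1 CPM in doxycycline replicates 1, 2 and 3, against 151, 214 and 167 CPM in untreated replicates 1, 2 and 3. Its groups overlapped, number 2 was the highest in both, and the block gave -0.40 (SE 0.09, adjusted p = 0.00906; adjusted p = 0.523 without it). Per kb of exon, Arrb2 made up 55.9% to 66.5% of arrestin mRNA in the doxycycline libraries and 68.9% to 74.8% in the untreated libraries, with no overlap. That Arrb2 held the larger share rests on the exon lengths used, 11.18 kb for Arrb1 and 2.845 kb for Arrb2. In CPM, Arrb1 was above Arrb2 in every library.

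Receptor kinases mark active receptors for arrestin, and of 4 tested members none passed without the block, by edgeR or DESeq2. At an unadjusted p under 0.05, 1 was lower and none higher, beside 9.56% and 5.86% of all genes. With the block 1 fell and none rose (25%, beside 25.8% of all genes). Grk2, which the beta-gamma pair brings to the membrane, stood at 112, 149 and 101 CPM in doxycycline replicates 1, 2 and 3, against 173, 197 and 139.7 CPM in untreated replicates 1, 2 and 3. It fell with the block (log2 fold change -0.50, SE 0.09, adjusted p = 0.00219; adjusted p = 0.297 without it). Grk6, the most abundant kinase of the group, stood at 202, 241 and 257 CPM in doxycycline replicates 1, 2 and 3, against 214, 227 and 249.9 CPM in untreated replicates 1, 2 and 3. It passed neither fit (log2 fold change 0.02, SE 0.14, adjusted p = 0.975). Grk5 averaged 7.06 ± 3.19 CPM with doxycycline and 6.86 ± 2.34 CPM untreated, and Grk4 averaged 1.04 ± 0.15 CPM with doxycycline and 0.822 ± 0.183 CPM untreated (SD, n = 3 each). Both passed neither fit.

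The adenylyl cyclases were 3 above the filter, with a value on each side of 0 and 1 near it. None passed without the block, beside 2.59% of all genes. With the block 1 fell and 1 rose (66.7%, beside 25.8% of all genes). Adcy7, the cyclase best known from blood cells, stood at 34.1, 48.4 and 67.3 CPM in doxycycline replicates 1, 2 and 3, against 58.6, 78.8 and 124 CPM in untreated replicates 1, 2 and 3. The groups overlapped because number 3 was highest in both, while the pairs were even at -0.78, -0.70 and -0.88. It fell with the block (log2 fold change -0.79, SE 0.09, adjusted p = 1.52e-04; adjusted p = 0.316 without it).

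Adcy9 stood at 12.1, 22.8 and 13.3 CPM in doxycycline replicates 1, 2 and 3, against 7.995, 12.3 and 7.92 CPM in untreated replicates 1, 2 and 3. It rose with the block (0.74, SE 0.12, adjusted p = 0.0013; adjusted p = 0.295 without it). Adcy6, a cyclase that calcium inhibits and the most abundant of the family, stood at 107, 165 and 118 CPM in doxycycline replicates 1, 2 and 3, against 117, 153 and 139 CPM in untreated replicates 1, 2 and 3, and passed neither fit. Per kb of exon, Adcy7 made up 20% to 33.3% of cyclase mRNA with doxycycline and 31.6% to 45.5% untreated. Adcy9 made up 10.2% ± 1.87 with doxycycline and 5.28% ± 1.38 untreated (SD, n = 3 each).

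Genes around this machinery were read from lists drawn up from general knowledge. Of 36 tested blood cell receptors of the G protein-coupled kind, 3 fell and none rose (8.33%, beside 2.59% of all genes). DESeq2 called 11 lower and 1 higher, beside 4.01% and 1.84% of all genes. At an unadjusted p under 0.05, 15 were lower and 1 higher, beside 9.56% and 5.86%. With the block 18 fell and 3 rose (58.3%, beside 25.8%). The list also holds Ackr1, Ccrl2 and C5ar2, atypical receptors that need not signal through G proteins. Of these Ackr1 was among the 3 that rose, and the other genes passed in neither fit. The median log2 fold change was -0.61. Adora3, an adenosine receptor of the Gi class, stood at 0.165, 0.257 and 0.331 CPM in doxycycline replicates 1, 2 and 3, against 2.64, 2.35 and 2.45 CPM in untreated replicates 1, 2 and 3 (log2 fold change -3.29, SE 0.33, adjusted p = 0.00759). Gpr174, a lysophospholipid receptor of lymphocytes, stood at 0.176, 0.195 and 0.301 CPM in doxycycline replicates 1, 2 and 3, against 1.46, 2.26 and 1.27 CPM in untreated replicates 1, 2 and 3 (-2.88, SE 0.37, adjusted p = 0.0143). Cxcr3, a chemokine receptor of the Gi class, averaged 0.0655 ± 0.0247 CPM with doxycycline and 0.28 ± 0.0155 CPM untreated (SD, n = 3 each; adjusted p = 0.0335). Its levels in doxycycline replicates 1, 2 and 3 (0.0439, 0.0925 and 0.0602 CPM) lay under the filter cutoff of 0.107 CPM. Like Gng2, Cxcr3 passed the filter only through the untreated libraries, so it had to differ. All 3 called receptors were scarce, under 3 CPM in every library, and with a mean of at least 1 CPM as the filter 1 receptor was called. The receptor count was 1 without doxycycline replicate 1 or 2 or without untreated replicate 1 or 2, and 5 without replicate 3 of either group.

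Among effectors and partners the 2 calls were effectors of the Gq class and of the beta-gamma pair. Of 27 tested, 2 fell and none rose (7.41%, beside 2.59% of all genes). By DESeq2 3 were lower and none higher, at an unadjusted p under 0.05 6 were lower and 1 higher (9.56% and 5.86% of all genes), and with the block 13 fell and 1 rose (51.9%, beside 25.8%). The 27 include the alpha subunit Gnat2 and the gamma subunit Gngt2, which the choice by symbol did not take. Gnat2 passed in neither fit. Gngt2 is among the 13 (edgeR block log2 fold change -1.13, adjusted p = 0.00206). Plcb2, a phospholipase C beta of blood cells, stood at 0.647, 2.25 and 1.16 CPM in doxycycline replicates 1, 2 and 3, against 19.6, 34.03 and 33.4 CPM in untreated replicates 1, 2 and 3 (log2 fold change -4.42, SE 0.50, adjusted p = 0.0117). Pik3cg, the phosphoinositide 3-kinase that beta-gamma activates in leukocytes, stood at 6.10, 8.75 and 12.6 CPM in doxycycline replicates 1, 2 and 3, against 37.8, 44.4 and 53.7 CPM in untreated replicates 1, 2 and 3 (-2.31, SE 0.29, adjusted p = 0.0141). The count was 1 without doxycycline replicate 1 or 2 or without untreated replicate 1 or 2. Both fell further than any alpha or beta subunit in log2 fold change.

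Downstream of the cyclases, 1 of 36 tested genes of the cAMP pathway fell and none rose (2.78%), near the 2.59% of all genes. By DESeq2 2 were lower and 1 higher, at an unadjusted p under 0.05 4 were lower and 2 higher (9.56% and 5.86% of all genes), and 10 fell and 5 rose with the block (41.7%, beside 25.8%). The gene called without it was Prkacb, a catalytic subunit of protein kinase A, at 133, 134 and 133 CPM in doxycycline replicates 1, 2 and 3, against 251, 263 and 236 CPM in untreated replicates 1, 2 and 3 (log2 fold change -0.91, SE 0.11, adjusted p = 0.0141). It did not pass without doxycycline replicate 1 or without untreated replicate 1 or 2.

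**Figure D5:**
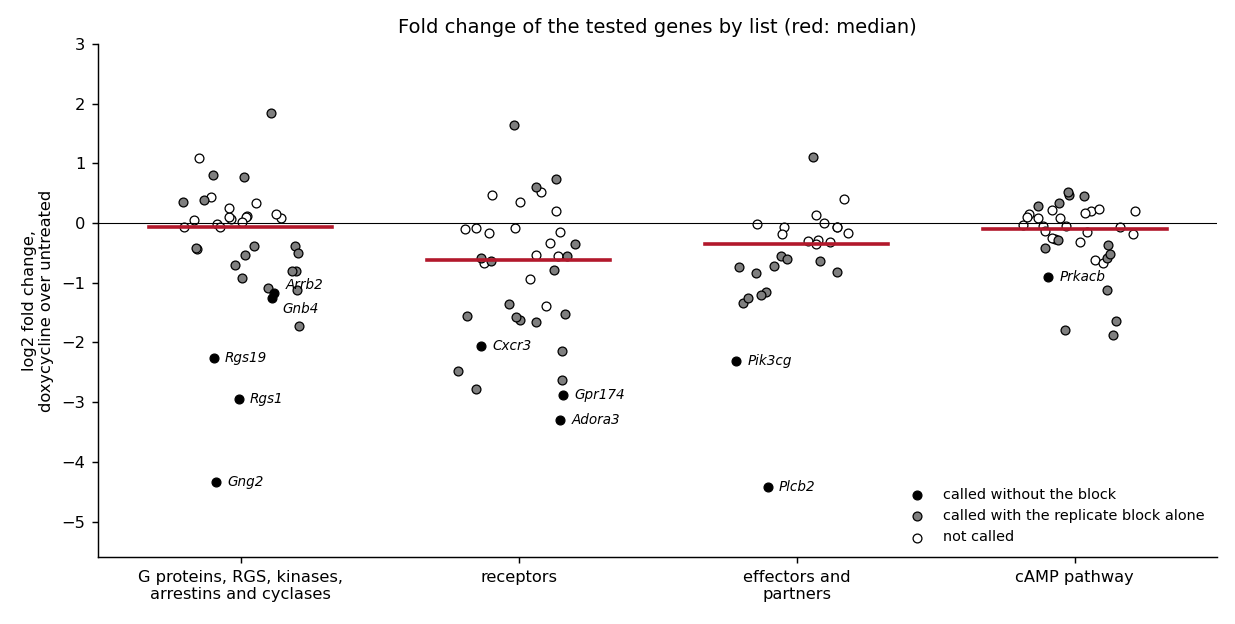
Log2 fold change of doxycycline over untreated for the 38 tested members and for the tested genes of the lists of receptors (36), effectors and partners (27) and the cAMP pathway (36), with a red line at each median. Black points passed without the block and are named, grey points passed with the block alone, and the medians are -0.06, -0.61, -0.34 and -0.10.

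Several of these genes are also expressed in other marrow cells, and some markers of those cells were lower with doxycycline. Of all genes tested, 15.6% were lower with the block and 2.18% without it. In bulk RNA fewer cells of a type and less RNA per cell cannot be told apart. The 7 megakaryocyte and platelet markers summed to 46.7 to 161 CPM in the doxycycline libraries and 81.1 to 309 CPM in the untreated libraries, and 5 of the 6 tested fell with the block and none without it. The 6 monocyte and macrophage markers in the table summed to 0.724 to 2 CPM with doxycycline and 4.34 to 10.2 CPM untreated, and 1 of 4 tested fell (3 with the block). The 5 mast cell and basophil markers summed to 0.733 to 1.51 CPM with doxycycline and 2.94 to 12 CPM untreated, 3 of 3 tested fell with the block, and Mcpt8 and Prss34 had 3 reads or fewer in every library. The 7 neutrophil markers summed to 0.165 to 9.1 CPM with doxycycline and 0.306 to 34.3 CPM untreated, and 1 of 5 tested fell with the block. The sums of this list and of the megakaryocyte and platelet list overlapped between the groups. Markers of B cells, of T and NK cells and of stroma and endothelium summed to at most 2.09 CPM in any library. The part of these cells in the values of Rgs1, Rgs18, Rgs19 and the other members was not tested.

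Strand is not kept by this library kit, so reads from exons that overlap on opposite strands cannot be told apart. The overlaps given here are of whole gene spans, introns included, on either strand. Whether exons overlap, and whether any member's count was affected, was not tested. Of the members that fell without the block, Gnb4 overlaps Gm37640 and Gng2 overlaps Gm48283, each on the opposite strand. Among the other members named here, Gnb2 overlaps Epo, Gnas overlaps Nespas, Gna12 overlaps Amz1, Gng13 overlaps Chtf18 and Rgs11 overlaps Arhgdig. Gnal overlaps Chmp1b and Mppe1, and Grk5 overlaps Zfp950. Further members, among them Gna14, Gnaq, Gnai2, Adcy6 and Arrb1, also overlap annotated genes. Rgs1, Rgs2, Rgs18 and Rgs19 overlap no other annotated gene, and Arrb2 overlaps a microRNA gene alone.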

How the data were processed

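The authors deposited 1 table of raw counts per gene symbol with a column for each of 6 libraries, made from polyA RNA with the TruSeq RNA v2 kit, per the labels' protocols. The submitters' processing notes name bcl2fastq 2.17.1.14, STAR, DESeq2, mm10 and GRCm38, and the counting tool, annotation and strand setting are not given here by any label or header. No column held a value below 1, which would follow if 1 had been added to every count. Values were used as deposited, and reads are given with 1 taken off where stated. Groups were compared, two-sided, with glmQLFTest of edgeR 4.0.16 in R 4.3.3 (a quasi-likelihood test) after TMM scaling, on the 14158 genes that filterByExpr kept, adjusted over all of them by Benjamini-Hochberg at 0.05. Each SE is the absolute log2 fold change over the root of its F statistic. The script was tested on simulated data. Total counts were 78926663 to 101276319 per library. Intervals for Gng2 and Gng13 cover counting error alone.

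Replicate numbers were taken to pair the libraries because each pair's deviations from the group means correlated above 0.1 (0.83, 0.83 and 0.75, on log2 of CPM plus 0.5). Residual degrees of freedom were 2 with the block and 4 without it. The chi-square per gene between libraries was between 145 and 551, so none was a copy. DESeq2 (1.42.0), other normalizations, other filters and leaving out each library were alternatives. The members and lists were chosen with earlier results of these data known. Every member is counted, and values per library are given for members that passed either fit and for the most abundant member of each role. From each list up to 4 genes with the smallest adjusted p are named, and promoters were taken for at most 4 members with a window, those that passed without the block and then those with the smallest adjusted p under it (Rgs19, Gng2, Adcy7 and Rgs12), and only windows with a match are printed, save one that overlaps another. Exon lengths are the union of exons in GENCODE M21 (GRCm38), and promoter windows are from RefSeq. An mRNA may hold only part of that union, so levels and shares per kb depend on it.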

Additional observations from a re-analysis of the deposited data

How the results depend on the processing

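With RLE or upper quartile factors, no filter on low counts, or 1 taken off each value, all 5 member calls remained and none of the 38 members changed its call. With a mean of at least 1 CPM as the filter 4 members fell, since Gng2 was not tested, and 1 receptor fell. DESeq2 called 288 genes higher and 629 lower, 1 member higher (Rgs12) and 9 lower, 1 receptor higher and 11 lower, and 1 cAMP gene higher and 2 lower. With the replicate block 1452 genes were higher and 2206 lower, with 5 and 17 members, 3 and 18 receptors, 1 and 13 effectors and 5 and 10 cAMP genes. The same block with 1 taken off each value (added once the data had been seen) gave 1400 and 2162 genes, and the same counts of members (5 and 17), receptors (3 and 18), effectors (1 and 13) and cAMP genes (5 and 10). DESeq2 with the replicate block gave 1736 genes higher and 1660 lower, 4 and 16 members, 4 and 17 receptors, 2 and 13 effectors and 6 and 9 cAMP genes. The block kept all 5 member calls and changed no direction among called members.

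Leaving out each library in turn gave between 0 and 26 genes higher and between 35 and 242 lower, between 0 and 6 members lower and 0 higher, between 1 and 5 receptors lower, between 1 and 2 effectors lower and between 0 and 1 cAMP genes lower. The cause of these differences was not tested, beyond the fewer samples in each fit. Depth limits the members under 1 CPM, where Gng2 rests on 1 read with doxycycline and 77 untreated, and Gng13 on 54 and 11.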
